A study of Homo sapiens with 6 samples.

Results

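Epithelial-to-mesenchymal transition (EMT) was followed here through 10 of its defining genes: the repressors SNAI1, SNAI2, ZEB1, ZEB2 and TWIST1, the cadherins CDH1 and CDH2, the intermediate filament gene VIM, the receptor tyrosine kinase gene AXL and MIR200CHG, the host transcript of a microRNA pair that restrains the programme. They were taken by name, with earlier results of these data known. Every probe set of the Affymetrix HG-U133 Plus 2.0 array that the platform annotation ties to exactly 1 gene symbol, that symbol being one of the 10, was kept, which gave 21 of 54613 probe sets, with all 10 genes covered. Total RNA came from SW480, an established human colorectal cancer cell line grown in serum-containing medium, in 2 groups of 3 arrays each. One group is described as overexpressing CPEB3, an RNA-binding protein that recognises cytoplasmic polyadenylation elements in mRNAs, and the other as negative control (NC). Both were transfected; which construct and vector were used, and whether a line is 1 clone, is not given in the sources used here. The replicates are called biological without a culture or day, and a p-value therefore reflects the spread between these arrays, which may be technical in part.

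In EMT, epithelial cells loosen their junctions and take on migratory, fibroblast-like features. SNAIL, ZEB and TWIST proteins drive the switch by binding E-box sequences in the promoters of epithelial genes, of which CDH1 (E-cadherin) is the best known, while N-cadherin (CDH2) and vimentin mark the mesenchymal state. The miR-200 microRNAs target ZEB1 and ZEB2 mRNA, and ZEB1 in turn represses the miR-200 genes, so both arms hold each other in check. In colorectal tumours this programme is studied mainly at the invasive edge and in metastasis.

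MIR200CHG carries miR-200c and miR-141, whose mature 3p strands are shown because the host transcript gave the steepest difference among the 10 genes. Sequences are from RefSeq (GRCh38.p14), 5′ to 3′, with the seed (bases 2 to 8) in capitals. They lie on the plus strand at chr12:6963742-6963764 and chr12:6964155-6964176.
hsa-miR-200c-3p: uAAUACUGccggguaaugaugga
hsa-miR-141-3p: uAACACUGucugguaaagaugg
Counted from the 5′ end, the seeds differ at 1 base (U4C from miR-200c-3p to miR-141-3p). The miR-200c-3p seed is shared with miR-200b-3p and miR-429, and that of miR-141-3p with miR-200a-3p. The arrays read the host transcript, and the mature microRNAs were not measured.

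The promoter window of MIR200CHG is shown with an E-box of the kind that SNAIL and ZEB proteins bind. Windows run from 250 bases before to 50 bases after a RefSeq start site, and those of 6 of the 10 genes were searched. CDH1, SNAI1 and TWIST1 had none here. Windows on the chromosome of SNAI2 were left out for the 10 genes, so SNAI2 was not searched. The count over all windows given below keeps that chromosome. The motif CAGGTG was searched on both strands, so that CACCTG counts as the same match, and matches are in capitals. MIR200CHG has 1 match, 78 bases upstream of its start (plus strand, chr12:6962995-6963294, GRCh38.p14).
MIR200CHG: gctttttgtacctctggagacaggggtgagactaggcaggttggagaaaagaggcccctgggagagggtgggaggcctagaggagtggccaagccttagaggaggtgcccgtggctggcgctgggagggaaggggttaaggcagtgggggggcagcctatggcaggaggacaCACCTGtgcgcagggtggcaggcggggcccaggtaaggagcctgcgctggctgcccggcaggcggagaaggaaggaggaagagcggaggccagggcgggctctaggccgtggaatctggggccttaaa
Of the 7 windows of ZEB1, the one at chr10:31318966-31319265 (plus strand) was chosen for its 3 matches, which begin 242 and 85 bases upstream and at base 34 of the transcript.
ZEB1: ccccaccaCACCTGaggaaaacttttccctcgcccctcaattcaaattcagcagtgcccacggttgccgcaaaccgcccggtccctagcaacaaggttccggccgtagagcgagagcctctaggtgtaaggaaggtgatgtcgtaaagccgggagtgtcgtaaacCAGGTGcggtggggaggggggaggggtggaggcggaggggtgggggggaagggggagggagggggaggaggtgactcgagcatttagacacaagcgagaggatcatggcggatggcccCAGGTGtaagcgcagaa
Another ZEB1 window and 1 of the 2 AXL windows hold 1 match each, and the windows of VIM, ZEB2 and CDH2 hold 0. Over all 35116 windows of the same length, 20.59% hold at least 1 match. A match describes these letters and is not a measured binding site.

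Before the EMT genes, CPEB3 itself was examined as a check of the labels. It went against them. Of its 4 probe sets, 3 were lower in the arrays labelled CPEB3 (log2 differences of -1.44, -0.35 and -0.25; limma, Benjamini-Hochberg adjusted p = 7.8e-05, 0.00877 and 0.0473) and the brightest differed by 0.05 (95% interval -0.10 to 0.20). The 3 lower ones were dim, with group means of 1.74 to 3.75 where the array medians were 3.89 to 3.93. Leaving dim probe sets out of the test removes these 3, so the 0 CPEB3 calls that then remained say nothing about them. With each array centred on its spike-in controls, 1 of the 3, 205773_at, remained past the threshold (-1.26; limma, Benjamini-Hochberg adjusted p = 4.9e-07). It kept its call under every alternative that tested it. Where these probe sets lie relative to the transfected sequence was not analysed here. Groups are therefore named by their labels throughout, and each direction rests on those labels.

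Cell identity was checked with marker genes. Of 12 colon epithelial markers, 10 lay above the array median in at least 1 array, among them EPCAM, KRT8, KRT18 and CDX2. CDH17 and LGALS4 lay below it on all 6. The summed intensity of the list was 8420 to 8703 in the arrays labelled CPEB3 and 7609 to 7754 in those labelled NC. Fibroblasts also express VIM, ZEB1, SNAI2 and AXL. Of 12 fibroblast markers, 8 lay below the median on all 6 arrays, including LUM, POSTN and FAP. COL1A1, DCN, PDGFRB and THY1 lay above it in at least 1 array, COL1A1 with group means of 6.48 and 6.32. The summed intensity of the list was 204.9 to 217.4 against 183.9 to 204.5. For 10 leukocyte markers the sum was 129.9 to 141.9 against 118.1 to 125.1, and for 6 endothelial markers 76.41 to 77.81 against 73.65 to 75.52. CD3E, CD3D, ITGAM, PECAM1 and TEK of these lists also lay above the median in at least 1 array. Group means of CDX2 (4.85 and 4.83) were close to those of the leukocyte marker CD3E (4.92 and 4.74). A place above the median therefore does not by itself show that a gene is expressed. The 3′ minus 5′ log2 signal of the ACTB control probe sets, a sign of RNA quality, was 3.24 to 3.54 against 3.21 to 3.27, and that of GAPDH 0.0093 to 0.136 against -0.0397 to 0.0125. In both groups ACTB thus read far brighter at its 3′ end, while GAPDH read nearly alike at both ends. Among the markers, KRT20 (0.87), KRT18 (0.26), the fibroblast gene DCN (0.30) and the leukocyte gene ITGAM (0.32) were called higher and 0 lower. The part of these values in the results was not tested.

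Differences are given as arrays labelled CPEB3 minus arrays labelled NC on the log2 scale of normalized intensity, and a probe set was called when limma's Benjamini-Hochberg adjusted p, taken over all 54613 probe sets, was under 0.05. Of the 21 EMT probe sets, 7 were called (33.3%, against 14.4% of all probe sets), from 6 genes. The genes were chosen with earlier results of these data known, so the shares given here are a description and no test. MIR200CHG was the 1 called higher (6.59% of all probe sets were higher), and 6 probe sets of SNAI2, ZEB1, TWIST1, VIM and AXL were called lower (7.86% of all). The groups did not overlap in 11 of the 21, against 32.1% of all probe sets. The median difference was -0.09 over the 21 and 0.02 over all probe sets. Probe sets of 1 gene share its transcripts, so the 21 are not independent. Dimness limits what the rest can show: 11 of the 21 lay below the array median (3.89 to 3.93) on every array, and RMA compresses differences there. In cell populations, fewer cells of a type and less RNA per cell cannot be told apart.

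**Figure D1:**
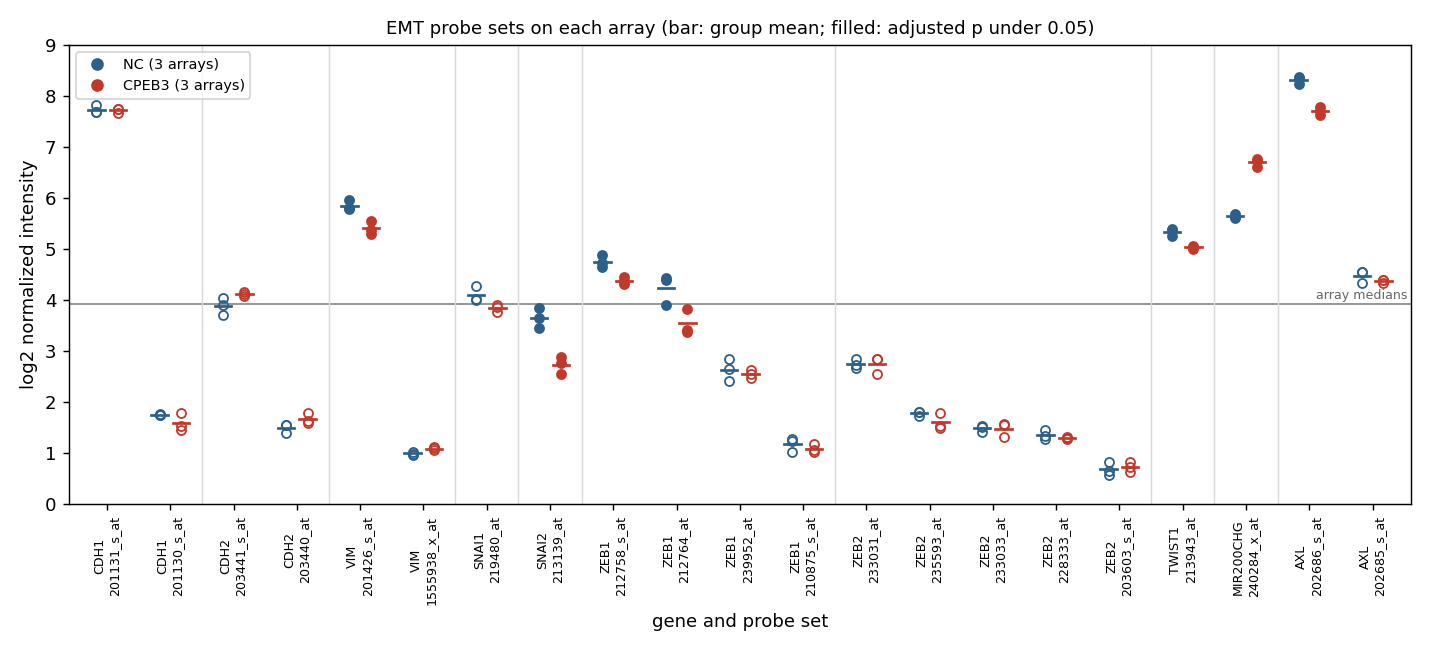
Log2 normalized intensity (vertical axis) of each of the 21 EMT probe sets (horizontal axis) on the 3 NC arrays (blue) and the 3 CPEB3 arrays (red), with bars at group means, filled points where the adjusted p was under 0.05 and a grey line at the array medians. MIR200CHG is higher on all 3 CPEB3 arrays, the bright probe sets of AXL, VIM, TWIST1 and ZEB1 and that of SNAI2 are lower, and all 5 ZEB2 probe sets lie below the array medians.

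The scale matters for the small differences. RMA makes all arrays alike in distribution. The 18 probe sets of the hybridization spike-ins, bacterial and phage transcripts that are normally added in equal amount, averaged 9.48 to 9.64 in the arrays labelled CPEB3 and 9.73 to 9.80 in those labelled NC. Centring each array on them moves every difference up by 0.18, and the median of all probe sets to 0.20. So centred, 3 EMT probe sets were lower (3.5% of all) and 4 higher (32.7% of all). SNAI2 (-0.74), ZEB1 at 212764_at (-0.52) and AXL (-0.42) kept their calls as lower and MIR200CHG (1.24) as higher. VIM (-0.26), ZEB1 at 212758_s_at (-0.20) and TWIST1 (-0.13) kept their sign and lost theirs, with limma Benjamini-Hochberg adjusted p = 0.0544, 0.132 and 0.257. Those calls depend on the scaling, and the cause of the shift of 0.18 was not tested.

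**Figure D2:**
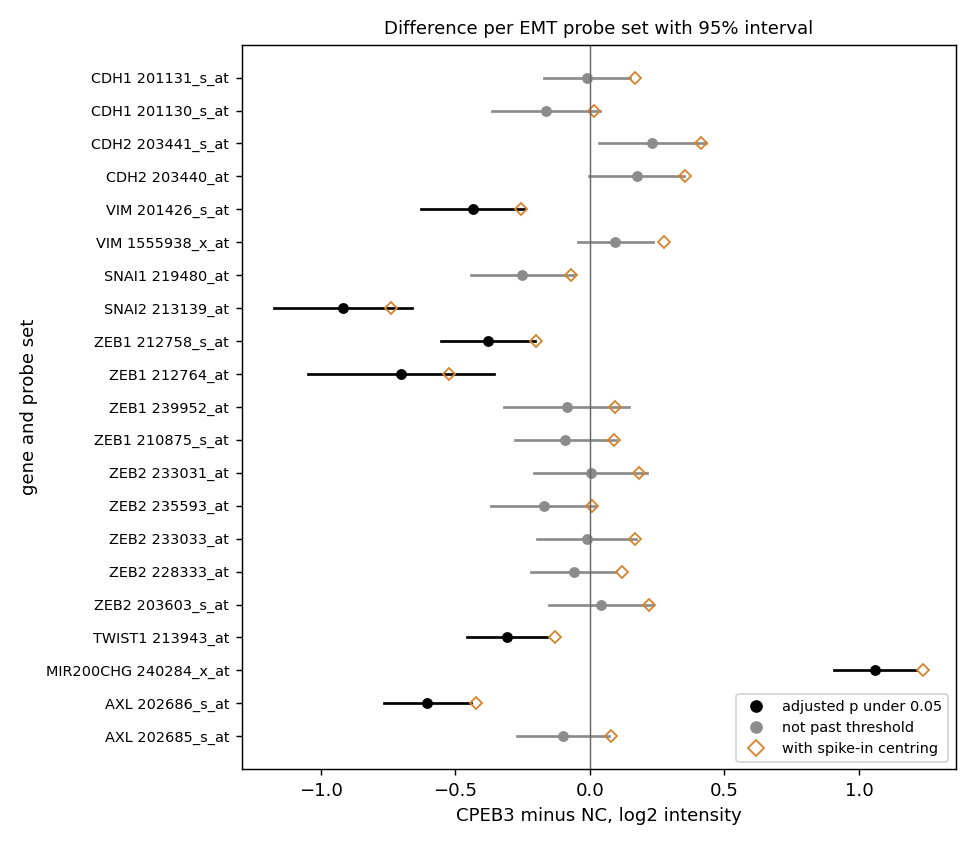
Difference between groups in log2 intensity (horizontal axis, CPEB3 minus NC) for each EMT probe set (vertical axis), with its 95% interval from limma (black where called, grey otherwise), and the same difference after spike-in centring (open diamonds). Centring moves every point to the right by 0.18, and SNAI2, 1 ZEB1 probe set, AXL and MIR200CHG stay called in the same direction.

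MIR200CHG was examined as the microRNA arm. Its probe set read 6.61, 6.72 and 6.75 in the arrays labelled CPEB3 and 5.61, 5.68 and 5.62 in those labelled NC. The lowest CPEB3 array lay well above the highest NC array. The difference was 1.06 (SE 0.07, 95% interval 0.91 to 1.21), a 2.08-fold rise (limma, Benjamini-Hochberg adjusted p = 1.1e-05). Leaving out any 1 array gave 1.03 to 1.10. It rests on 1 probe set, 240284_x_at, whose suffix marks probes that can also match other sequences, and no further probe set of the gene was used to check it.

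ZEB1 encodes the zinc finger repressor that miR-200 microRNAs target. Of its 4 probe sets, 2 fell. At the brighter one, 212758_s_at, the arrays labelled CPEB3 read 4.36, 4.44 and 4.30 and those labelled NC 4.72, 4.87 and 4.65, without overlap, a difference of -0.38 (SE 0.08; limma, Benjamini-Hochberg adjusted p = 0.0105). At 212764_at the values were 3.37, 3.41 and 3.81 against 3.90, 4.38 and 4.42. CPEB3 replicate 3 and NC replicate 1 approach each other there, and the groups still do not overlap. The difference was -0.70 (SE 0.15, 1.63-fold lower; limma, Benjamini-Hochberg adjusted p = 0.0140), and the call was lost without CPEB3 replicate 1 (-0.62, adjusted p = 0.0655) or without CPEB3 replicate 2 (-0.64, adjusted p = 0.0552). The other two, 239952_at (2.54 ± 0.07 against 2.63 ± 0.21, SD, n = 3 each) and 210875_s_at (1.08 ± 0.08 against 1.17 ± 0.13), were dim and overlapped, and turn positive with spike-in centring (0.093 and 0.088, neither called). With the mean of all 4 probe sets ZEB1 differed by -0.31 and stayed called.

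ZEB2, the paralog of ZEB1 with the same E-box binding, gave no difference past the threshold. Group means of its 5 probe sets ran from 0.68 to 2.74, below the array median on all arrays, and every pair of groups overlapped. Differences ran from -0.17 (235593_at, 95% interval -0.37 to 0.02) to 0.04 (203603_s_at, -0.15 to 0.23). RMA compresses differences at this level, so these values do not show that ZEB2 was unaltered.

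SNAI2, which encodes SLUG, had the largest fall among the 10 genes. Its probe set read 2.87, 2.77 and 2.54 in the arrays labelled CPEB3 and 3.84, 3.45 and 3.64 in those labelled NC. All 3 CPEB3 values lie below all 3 NC values. The difference was -0.92 (SE 0.11, 95% interval -1.17 to -0.66), or 1.89-fold lower (limma, Benjamini-Hochberg adjusted p = 0.000697). It ranged from -1.01 to -0.82 when any 1 array was left out. Both levels were below the array median, so the call rests on a dim probe set.

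SNAI1, which encodes SNAIL and is the closest relative of SLUG among the 10, moved less. It read 3.86, 3.90 and 3.76 against 4.02, 4.26 and 3.997, near the array median. The groups did not overlap, and the difference of -0.25 (95% interval -0.44 to -0.06) missed the threshold (limma, Benjamini-Hochberg adjusted p = 0.0842). It passed when dim probe sets were left out of the test (adjusted p = 0.0331) and shrank to -0.07 with spike-in centring (adjusted p = 0.59). Whether SNAI1 and SNAI2 differ in response was not tested.

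TWIST1, a basic helix-loop-helix regulator, was lower by a small amount. Its values were 4.99, 5.03 and 5.05 in the arrays labelled CPEB3 and 5.26, 5.35 and 5.39 in those labelled NC, tight in both groups and without overlap. The difference was -0.31 (SE 0.07, 1.24-fold lower; limma, Benjamini-Hochberg adjusted p = 0.0133). Without CPEB3 replicate 1 it was -0.29 and just missed the threshold (adjusted p = 0.0521).

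Among the structural genes, E-cadherin did not differ past the threshold. At the bright CDH1 probe set, 201131_s_at, the arrays labelled CPEB3 read 7.65, 7.74 and 7.74 and those labelled NC 7.68, 7.67 and 7.82, fully overlapping. The difference was -0.01 with a 95% interval of -0.17 to 0.15, and it turned to 0.17 with spike-in centring, again not called (adjusted p = 0.152). The other CDH1 probe set was near the floor of the scale (1.58 ± 0.18 against 1.75 ± 0.01, SD, n = 3 each).

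N-cadherin, which often rises as E-cadherin falls in EMT, leaned upward. CDH2 read 4.10, 4.15 and 4.07 in the arrays labelled CPEB3 against 3.70, 4.03 and 3.90 at 203441_s_at, near the array median. It read 1.63, 1.58 and 1.77 against 1.55, 1.38 and 1.54 at the dim 203440_at. The groups did not overlap at either. The differences of 0.23 and 0.17 missed the threshold (limma, Benjamini-Hochberg adjusted p = 0.119 and 0.184). Their mean, 0.20, passed it in the test of 1 value per gene (adjusted p = 0.0214). Both passed with spike-in centring (0.41 and 0.35, adjusted p = 0.0088 and 0.0095), where 32.7% of all probe sets were called higher.

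Vimentin mRNA was lower at the brighter of its 2 probe sets. VIM read 5.55, 5.30 and 5.37 in the arrays labelled CPEB3 against 5.80, 5.95 and 5.77 at 201426_s_at. Every CPEB3 value was below every NC value. The difference was -0.43 (SE 0.09, 1.35-fold lower; limma, Benjamini-Hochberg adjusted p = 0.00837). The other probe set, 1555938_x_at, lay among the dimmest on the array (1.08 ± 0.03 against 0.99 ± 0.03, SD, n = 3 each) and leaned the other way by 0.09, not called. With spike-in centring it was called higher (0.27, adjusted p = 0.0331) while 201426_s_at lost its call. Each probe set kept its sign under both scalings. The direction at VIM thus depends on the probe set, and the scaling decides which probe set is called. With the mean of both, uncentred, the difference was -0.17 and not called (adjusted p = 0.0527).

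AXL, a receptor kinase of the TAM family whose expression accompanies EMT in many carcinomas, was lower at a bright probe set. At 202686_s_at, which was above 91.3% to 94.5% of the probe sets of each array, it read 7.78, 7.62 and 7.70 in the arrays labelled CPEB3 and 8.22, 8.36 and 8.33 in those labelled NC. The groups lay far apart for their spread. The difference was -0.60 (SE 0.07, 95% interval -0.77 to -0.44), or 1.52-fold lower (limma, Benjamini-Hochberg adjusted p = 0.000564). At 202685_s_at, which read 4.39, 4.32 and 4.39 against 4.53, 4.53 and 4.33, the groups overlapped and the difference was -0.10 (95% interval -0.27 to 0.07), or 0.080 with spike-in centring. The 2 intervals do not overlap, and the difference between the probe sets was not tested.

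Of the other 4 TAM receptor and ligand genes, 2 rose and 0 fell, where 10.9% of all genes rose and 12.5% fell. PROS1, which encodes protein S, a ligand of TAM receptors, rose from 5.01 ± 0.17 to 5.82 ± 0.07 (SD, n = 3 each), a 1.75-fold change (limma, Benjamini-Hochberg adjusted p = 0.000246, here over 19775 genes with 1 probe set each). The sister receptor TYRO3 rose 1.32-fold at its brighter probe set (adjusted p = 0.00393), a call lost when its 2 probe sets were averaged (0.15, adjusted p = 0.163). MERTK differed by -0.18 and GAS6, the main AXL ligand, by -0.15, neither called (adjusted p = 0.262 and 0.127), and with spike-in centring GAS6 turned to 0.033.

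Beyond the 10 genes, 134 further genes of the EMT programme were listed by role, of which 125 were measured. Of these, 21 rose and 28 fell, beside the 10.9% and 12.5% of all genes. The median difference was 0.02 over the 125 and 0.02 over all genes. With spike-in centring 50 were higher and 12 lower, beside 39.3% and 5.25% of all genes. The mean of a gene's probe sets gave 32 calls in place of 49.

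Among other transcription factors and corepressors 10 of 20 were lower and 0 higher, with a median of -0.18. With spike-in centring 4 were lower and 4 higher. Over all genes 12.5% were lower and 10.9% higher, and 5.25% and 39.3% with spike-in centring. GATA6, a gut transcription factor, was 1.60-fold lower (called at 1 probe set of 2), CTBP2, a corepressor that ZEB1 recruits, 1.37-fold (5 of 6 probe sets), and the E-proteins TCF3 (E2A) 1.36-fold (4 of 14) and TCF12 1.35-fold (1 of 4). Adjusted p-values from limma (Benjamini-Hochberg) were at most 0.00165 for these 4, and TCF3 and TCF12 were not called when their probe sets were averaged. The inducing ligands and receptors had 5 of 18 lower and 1 higher. With spike-in centring 1 was lower and 4 higher, beside the same shares of all genes. SMAD4, the shared SMAD, fell 1.39-fold, but of its 5 probe sets 1 was lower and 1 higher. The TGF-beta receptor TGFBR2 fell 1.33-fold and TGFB1 1.26-fold (adjusted p = 0.0143, lost on averaging its probe sets). NOTCH1 fell 1.21-fold (adjusted p = 0.0471, also lost on averaging), and neither of its probe sets was called when adjusted over all probe sets. TGFB2 differed by 0.05 and was not called. With spike-in centring TGFBR2, TGFB1 and NOTCH1 were not called (adjusted p = 0.0601, 0.2 and 0.393).

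Epithelial genes went both ways. Of 24 epithelial targets of the repressors, 7 rose and 3 fell (13 and 1 with spike-in centring). Over all genes 10.9% rose and 12.5% fell (39.3% and 5.25% with spike-in centring). CDS1, an enzyme of phospholipid synthesis, rose 1.55-fold and LAD1, an anchoring filament protein of the basement membrane, 1.33-fold, while the desmosomal plaque gene DSP fell 1.33-fold and the claudin CLDN4 1.27-fold (largest adjusted p of the 4, 0.00428). CLDN4 was lower at 1 of 2 probe sets and not called with their mean (-0.16). Factors that hold cells in the epithelial state had 2 of 11 higher and 3 lower, the same counts as with spike-in centring. ELF3, an epithelial ETS factor, was 2.04-fold lower and called at each of 3 probe sets, GRHL1 1.52-fold and KLF5 1.37-fold lower, and FOXA1 1.40-fold higher at a dim probe set (lost with the mean of its 2). Of 9 other cadherins and catenins, JUP, which encodes plakoglobin, was the 1 called, 1.19-fold higher (adjusted p = 0.0287), a share near that of all genes. Its probe set was not called when adjusted over all probe sets, and with spike-in centring 5 of the 9 were higher and 0 lower.

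Of 26 mesenchymal products 4 were higher and 3 lower, shares near those of all genes (10.9% and 12.5%), and 14 were higher and 2 lower under spike-in centring. LOXL2, a collagen cross-linking oxidase reported to act with SNAIL, was 1.93-fold lower (called at 1 probe set of 4). The fibronectin receptor subunit ITGA5 fell by 0.59 on the log2 scale and its ligand gene FN1 by 0.34, the latter at 4 of 7 probe sets. With spike-in centring FN1 was not called (-0.16; limma, Benjamini-Hochberg adjusted p = 0.132). S100A4, a calcium-binding protein linked to motility, was 1.26-fold higher. The largest of the adjusted p-values of these 4 was 0.00342. The others called higher were DCN (0.30), CD44 (0.27) and ITGAV (0.25), also named outside the rule after their values were seen. Among regulators of SNAIL and ZEB protein stability 4 of 13 rose and 4 fell, beside 10.9% and 12.5% of all genes. With spike-in centring 6 were higher and 1 lower, beside 39.3% and 5.25% of all genes. Those that rose without centring were BTRC (0.28), GSK3A (0.23), FBXL5 (0.22) and PRKD1 (0.21), named here although outside the rule for named genes, after their values were seen. CSNK1A1, a kinase that primes proteins for degradation, was 1.34-fold lower and SIAH1 and SIAH2, ubiquitin ligases, 1.29-fold and 1.24-fold lower, and FBXO11, whose ubiquitin ligase targets SNAIL, 1.30-fold lower at 1 of 3 probe sets and not called with their mean. The largest adjusted p of these 4 was 0.0137. With spike-in centring CSNK1A1 was the 1 still called lower, SIAH1, SIAH2 and FBXO11 having adjusted p = 0.0796, 0.252 and 0.097. The arrays do not measure protein.

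**Figure D3:**
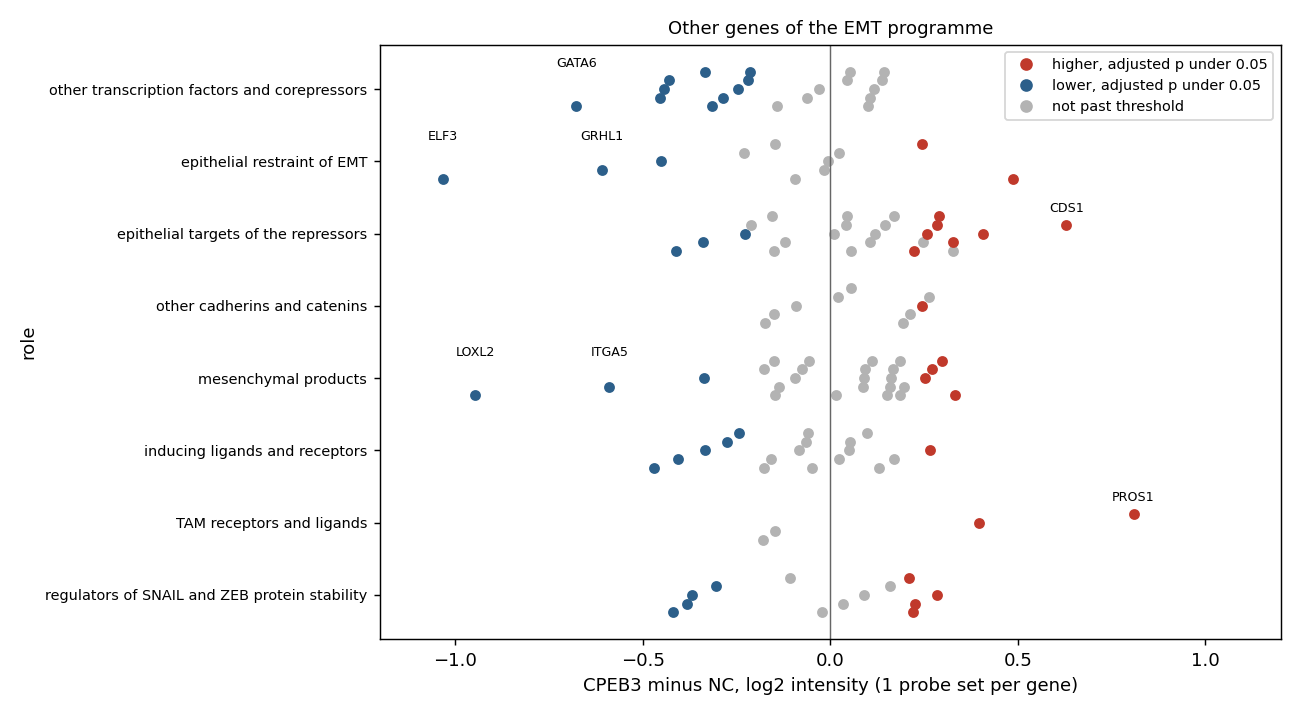
Difference in log2 intensity (horizontal axis, CPEB3 minus NC, 1 probe set per gene) for the 125 measured further EMT genes, in 1 row per role (vertical axis; points are spread vertically for legibility), red where called higher, blue where called lower and grey otherwise. The factors and corepressors have 10 blue points and 0 red ones, 4 of 20 being lower and 4 higher with spike-in centring. Epithelial and mesenchymal genes have both colours.

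Genes with profiles like those of the called genes were counted within a fixed distance. Because the profiles were not scaled, a small change takes in more genes and can take in nearly unchanged ones. The counts therefore follow the size of each change and are no finding about these genes. Likeness was the root mean square distance between log2 profiles over the 6 arrays, each centred on its mean, and it describes these arrays only. Within 0.15 lay 5420 genes for TWIST1, 2642 for ZEB1, 1673 for VIM and 944 for AXL, but 45 for MIR200CHG and 27 for SNAI2. Nearest to MIR200CHG were BDH2 (0.042), LINC01963 (0.046) and ZMAT3 (0.050), and nearest to SNAI2 were CHASERR (0.082), ATP8B3 (0.087) and PLCB4 (0.095). ERFE (0.0092), ZC3H4 (0.019) and FAM111A-DT (0.019) came nearest to AXL, ARRDC2 (0.042), ASF1A (0.046) and SLC25A36 (0.051) to VIM. MOK (0.030), CIP2A (0.035) and MAP4K5 (0.036) came nearest to ZEB1, and LOC100130744 (0.0099), DGLUCY (0.017) and SH3KBP1 (0.019) to TWIST1.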

How the data were processed

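SW480 RNA was measured on 6 Affymetrix HG-U133 Plus 2.0 arrays. The authors deposited a normalized intensity for each probe set, linear in scale and made with RMA per the submitters' processing notes; how RMA's log2 output became linear is not given in the sources used here. Log2 was taken before any test, as planned. Of 54675 probe sets, 62 controls were left out; 41091 have 1 gene symbol, 1801 several and 11721 none.

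Groups come from the sample titles. The test was that of limma 3.58.1 (R 4.3.3; lmFit, eBayes, group as the only term, two-sided, 4 residual and 5.53 prior degrees of freedom), with Benjamini-Hochberg adjustment over all probe sets, threshold 0.05. For genes outside the 10, the single-symbol probe set with the highest mean stood for the gene (19775 genes). Listed genes without one were not analysed here. The members, lists and alternatives were chosen with earlier results of these data known. Every EMT probe set is named; of the other genes, up to 4 called per role with the largest difference, with TYRO3, MERTK, GAS6, TGFB1 and TGFB2 in any case. On simulated data for 54613 probe sets the test recovered 0% of log2 changes of 0.25, 60% of 0.5, 88% of 1 and 100% of 2, with 2 false calls among 126; those data held fewer changes than the real ones, so their threshold was stricter. The number of arrays limits the precision, as arrays carry no read depth, and detection calls were not used. Figures were drawn with matplotlib 3.10.9.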

Additional observations from a re-analysis of the deposited data

How the results depend on the processing

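Of the 7 called EMT probe sets, none changed sign under any alternative run, and 97 of their 106 values under alternatives kept the call. SNAI2, MIR200CHG and AXL at 202686_s_at kept theirs wherever they were tested. The main limits are the labels, the dim probe sets, the 3 arrays per group and the scaling. The called probe sets of CPEB3 itself were lower in the arrays labelled CPEB3, and each direction rests on those labels.

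The replicate numbers of the titles did not pair the samples (deviations of same-numbered arrays correlated at 0.0065, 0.0012 and 0.0926), and with a replicate block all 7 EMT calls were kept, with 7217 probe sets called in place of 7891. Spike-in centring gave 19786 calls over all probe sets (17876 higher and 1910 lower, where the uncentred values gave 3597 and 4294), 4 EMT probe sets higher in place of 1 and 1 CPEB3 probe set lower in place of 3. Leaving out the s_at and x_at probe sets gave 4497 calls, 3 EMT calls, 0 of them higher, and 29 further EMT genes. That setting removes every probe set of MIR200CHG, VIM, AXL and CDH1 from the test. It also removes the brighter probe sets of ZEB1 and CDH2 and a dim one each of ZEB1 and ZEB2. An adjusted p under 0.01 gave 3868 calls, 4 EMT calls and 27 further genes. The mean of a gene's probe sets gave 32 further genes. Leaving out dim probe sets took the 3 called CPEB3 probe sets out of the test and so left 0 CPEB3 calls. Leaving out 1 array gave 5143 to 6680 calls over all probe sets, the fewest without CPEB3 replicate 2.

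Sign changes were limited to probe sets that were called neither way. With spike-in centring, which adds a constant, they were CDH1 201131_s_at (0.17) and 201130_s_at (0.016), ZEB1 239952_at (0.093) and 210875_s_at (0.088), ZEB2 235593_at (0.0082), 233033_at (0.17) and 228333_at (0.12) and AXL 202685_s_at (0.080). CDH1 201131_s_at gave 0.042 with repeated quantile normalization and -0.037 to 0.038 with 1 array left out. ZEB2 233031_at gave -0.012 with median centring, -0.028 with repeated quantile normalization, -0.0053 with array weights and -0.046 to 0.101 with 1 array left out, and the mean of the ZEB2 probe sets gave -0.040. With 1 array left out, ZEB1 239952_at gave -0.198 to 0.017, ZEB2 233033_at -0.056 to 0.067 and ZEB2 203603_s_at -0.015 to 0.114. The cause was not tested.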
